A study of Mus musculus with 36 samples.

Results

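Atoh8 and Eng, 2 genes tied by textbook knowledge to bone morphogenetic protein (BMP) and transforming growth factor beta (TGF-beta) signalling, were followed in mouse fibroblasts through 8 times of tetracycline. Every probe whose platform gene symbol was Atoh8 or Eng was taken, which gave 3 of the 20355 probes and 2 of the 9930 named genes on the array, with 1 probe for Atoh8 (probe 2705) and 2 probes for Eng (probes 3863 and 15585). The pair was singled out with its values in these arrays already known, so the levels below are a description and carry no p-value. Differences are given with the standard error (SE) of a linear model fitted to all arrays.

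The cells were NIH3T3, an established mouse embryo fibroblast line, carrying an Erbb2 transgene under tet-off control, in which tetracycline is meant to stop transcription of the transgene. On each 2-colour cDNA array, channel 1 came from cells kept with tetracycline for 1, 2, 4, 12 or 24 h or for 3, 5 or 7 days, or from cells without it. Channel 2 came from Erbb2 cells without tetracycline, so every group carried the transgene per the labels. The platform annotation gave 0 probes for Erbb2, and shutdown of the transgene was therefore not checked. The labels' protocols speak of organs and of a pooled animal reference, and the design text of 2 different untreated lines, so the source of the untreated RNA is not fully settled.

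Each treated time had 4 arrays, with channel 1 in Cy5 on replicates 1 and 2 and in Cy3 on replicates 3 and 4. The untreated group had 3 distinct arrays, because replicates 1 and 2 held the same values apart from a constant (0.771, SD 0.0005) and were counted as 1 array. Between 17508 and 20010 probes per array carried a value, and the interquartile range of the log2 ratios was 0.357 to 0.504 at 1 to 24 h, 0.492 to 0.7 in the untreated arrays and 0.694 to 1.419 at 3 to 7 days. Precision is limited by how many arrays there are, and whether replicates were separate cultures is not stated in the labels. A 2-colour ratio holds no absolute level, so the fibroblast label could not be checked by levels of its markers. Of 11 fibroblast markers tested, limma at an adjusted p under 0.05 found 5 lower at 1 h, 5 at 2 h, 4 at 4 h, and 1 at both 12 and 24 h. It found 2 higher at 3 days, 2 higher and 2 lower at 5 days, when an Eng probe was highest, and 4 higher and 2 lower at 7 days. Of the 6 to 8 endothelial markers tested, 0 were higher at any time and 1 was lower at 5 and at 7 days. Of all probes, limma called 0.197% at 1 h, 0.540% at 2 h and 0.193% at 4 h. The share was 0.0165% at 12 h, 0.0276% at 24 h, 0.732% at 3 days, 2.19% at 5 days and 1.11% at 7 days. These shares are per probe, whereas a marker gene counts when any of its probes is called. Whether the marker shifts have a part in the values of Atoh8 or Eng was not tested.

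Atoh8 encodes a basic helix-loop-helix (bHLH) transcription factor of the atonal family, which binds E-box DNA and is known to be switched on by BMP signals through Smad proteins in endothelial cells. Eng encodes endoglin, a membrane co-receptor that presents TGF-beta family ligands to their signalling receptors and is best known from endothelium, where it works with the receptor encoded by Acvrl1. Ligand-bound receptors phosphorylate Smad proteins, which enter the nucleus with Smad4 and switch target genes on or off. In fibroblasts the TGF-beta arm is known for driving collagen and fibronectin genes.

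In the GRCm38.p6 build, Atoh8 (NM_153778) spans chr6:72206174-72235780 and Eng (NM_007932) spans chr2:32646595-32682669. The 250 bases before each gene's start are shown for both genes and for Col1a2. This collagen gene is shown because the Atoh8 probe followed 3 of its 4 probes more closely than the probes of any other named gene. Sequences and starts are those of RefSeq. The start used for Atoh8 lies inside the gene's annotated span, so most of its window lies within that span. Capitals mark matches on either strand to GGCGCC or CAGACA (short Smad-binding elements), GTCTAGAC (a palindromic Smad element), CAGCTG or CACGTG (E-boxes), GGGCGG (a GC box) or GCGTGGGCG (an early growth response element).
Atoh8, chr6:72235578-72235827, minus strand: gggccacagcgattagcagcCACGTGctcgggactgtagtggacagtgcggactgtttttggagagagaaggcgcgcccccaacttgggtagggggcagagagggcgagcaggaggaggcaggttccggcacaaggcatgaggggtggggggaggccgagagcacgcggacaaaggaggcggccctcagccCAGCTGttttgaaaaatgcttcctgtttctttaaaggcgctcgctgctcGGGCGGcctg
Eng, chr2:32646345-32646594, plus strand: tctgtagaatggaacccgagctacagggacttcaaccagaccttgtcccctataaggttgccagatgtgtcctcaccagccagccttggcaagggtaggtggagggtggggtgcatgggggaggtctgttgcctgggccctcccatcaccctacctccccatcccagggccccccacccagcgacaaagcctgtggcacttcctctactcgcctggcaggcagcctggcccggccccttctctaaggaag
Col1a2, chr6:4505368-4505617, plus strand: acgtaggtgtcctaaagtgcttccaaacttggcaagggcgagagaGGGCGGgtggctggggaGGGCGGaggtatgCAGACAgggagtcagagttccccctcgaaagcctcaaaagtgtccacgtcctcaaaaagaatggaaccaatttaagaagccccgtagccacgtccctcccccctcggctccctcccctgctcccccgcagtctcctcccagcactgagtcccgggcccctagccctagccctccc
The Atoh8 window held both E-box forms, CACGTG at 230 to 225 bases and CAGCTG at 59 to 54 bases before the start. It also held a GC box at 10 to 5 bases. Of these, CAGCTG and the GC box lie within the gene's annotated span and CACGTG lies outside it. The Eng window held 0 matches to these motifs. The Col1a2 window held 2 GC boxes and CAGACA, and shared the GC box with Atoh8. Among 32851 RefSeq windows of the same length, 6.02% held CACGTG, 13% CAGCTG, 32.7% GGGCGG, 17.1% CAGACA, 9.59% GGCGCC, 0.167% GTCTAGAC and 0.536% GCGTGGGCG. All 3 windows were GC-rich, at 63.2% for Atoh8, 62.4% for Eng and 62.0% for Col1a2, beside a median of 52.4% over all windows. A match describes letters only and shows no binding.

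The Atoh8 probe had lower ratios than the untreated arrays in the first hours, ratios near them at 12 and 24 h, and its highest ratios at 7 days. All ratios below are log2 values centred on each array's median, with the sign of the Cy3 arrays turned unless stated. A positive value is taken to mean more signal in channel 1, which assumes a deposited ratio of Cy5 over Cy3. In the untreated arrays the Atoh8 log2 ratio was -0.22, -0.12 and -0.04, a mean of -0.13 ± 0.09 (SD, n = 3). At 1 h it was -1.27, -1.46, -1.44 and -1.37 in replicates 1 to 4, a mean of -1.39 ± 0.08 (SD, n = 4). All 4 arrays at 1 h lay below every untreated array, and both dye orientations gave nearly the same value. At 2 h the 4 ratios were -0.94, -1.08, -1.17 and -1.31, and at 4 h they were -0.96, -1.04, -0.91 and -1.18. The means were -1.12 ± 0.15 at 2 h and -1.02 ± 0.11 at 4 h (SD, n = 4 each). The ranges of 1 and 2 h overlapped, as did those of 2 and 4 h, and all 3 lay below the untreated range. In bulk RNA of this kind, fewer cells with a transcript and less of it per cell cannot be told apart.

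**Figure D1:**
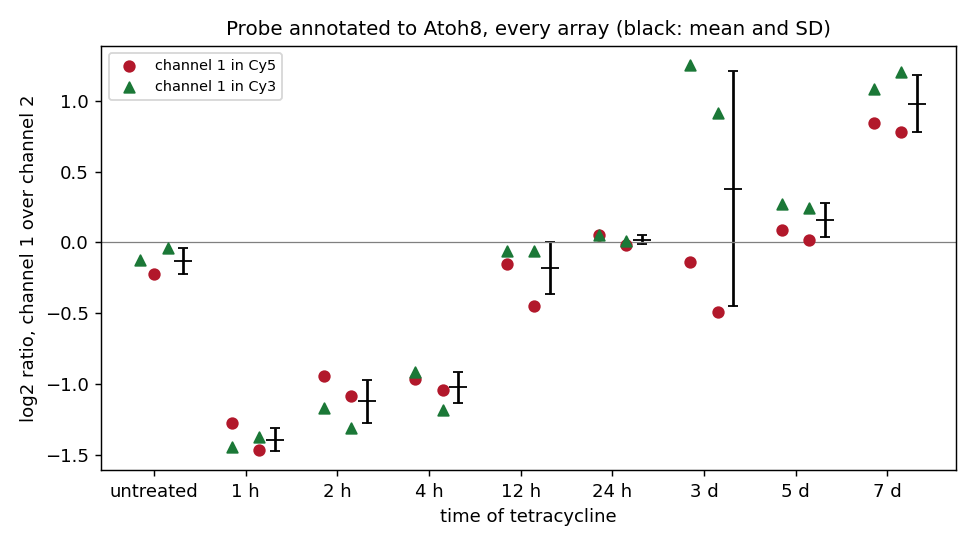
Log2 ratio of the probe annotated to Atoh8 on each of 35 arrays, by time of tetracycline; circles have channel 1 in Cy5, triangles in Cy3, and the black bar is the mean with its SD. The 1, 2 and 4 h arrays lie between -1.46 and -0.91, and the 3 day arrays split by dye.

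By 12 h the Atoh8 ratios were back at the untreated range. The 12 h ratios were -0.15, -0.45, -0.06 and -0.06, a mean of -0.18 ± 0.18 (SD, n = 4), and overlapped the untreated range. The 24 h ratios were 0.05, -0.02, 0.05 and 0.01, a mean of 0.02 ± 0.03 (SD, n = 4), and lay just above the untreated range. Between 4 h and 12 h, neighbours in the order of means, the ranges did not overlap.

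At the late times the Atoh8 ratios were higher again, but unevenly. At 3 days they were -0.14 and -0.49 with channel 1 in Cy5 and 1.25 and 0.91 with channel 1 in Cy3, a mean of 0.38 ± 0.83 (SD, n = 4). Before turning, all 4 arrays at 3 days were negative, so the sign there depends on the dye and no single direction holds for the group. At 5 days the ratios were 0.09, 0.02, 0.27 and 0.24, a mean of 0.16 ± 0.12 (SD, n = 4). At 7 days they were 0.84, 0.78, 1.08 and 1.20, a mean of 0.98 ± 0.20 (SD, n = 4). All arrays at 5 and 7 days exceeded the untreated range, and the 7 day range overlapped that of 3 days but not that of 5 days.

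The fitted differences of Atoh8 from untreated, each with an SE of 0.23, were -1.22 at 1 h, -0.96 at 2 h, -0.86 at 4 h, -0.01 at 12 h and 0.19 at 24 h. They were 0.55 at 3 days, 0.32 at 5 days and 1.14 at 7 days. At 1 h the probe stood 124th from the lowest of 18269 probes, at 2 h 136th of 18505 and at 4 h 176th of 18617. At 7 days it stood 738th from the highest of 16937. Averaged over spans, the difference was -1.01 (SE 0.19) at 1 to 4 h, 0.09 (SE 0.20) at 12 and 24 h and 0.67 (SE 0.19) at 3 to 7 days. These directions rest on turning the Cy3 arrays. Before turning, the ratios at 1 h were -1.27 and -1.46 with channel 1 in Cy5 and 1.44 and 1.37 in Cy3. At 7 days they were 0.84 and 0.78 in Cy5 and -1.08 and -1.20 in Cy3. The 2 and 4 h arrays were mirrored by dye in the same way, unlike those at 3 days. Without turning, mirrored ratios largely cancel in a group mean, and the early difference was 0.16 and the late one -0.21. The overall sign is assumed, since the numerator of the ratio is not stated in the sources used here.

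The 2 probes of Eng did not follow one course. Probe 3863 was highest at 5 days and next at 7 days, whereas probe 15585 overlapped the untreated arrays at all 8 times. Over the 35 arrays, after each probe's dye effect was taken off, the Pearson r between the 2 Eng probes was 0.12. Of 3955 pairs of probes annotated to the same gene, 65.5% had a lower r, and their median r was 0.02. These arrays share the channel 2 source and the platform, so this r is a description.

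On Eng probe 3863 the untreated log2 ratios were 0.10, 0.32 and 0.32, a mean of 0.25 ± 0.13 (SD, n = 3). At 5 days they were 1.89, 1.54, 1.51 and 1.49, a mean of 1.61 ± 0.19 (SD, n = 4). At 7 days they were 0.83, 0.82, 0.68 and 0.92, a mean of 0.81 ± 0.10 (SD, n = 4). The 4 arrays of 5 days lay above every other array of this probe, and the 7 day arrays lay above all untreated arrays on both dyes. The highest of these, 5 day replicate 1, is the array whose values were displaced by 1 row more than the others before they were moved back.

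At the earlier times probe 3863 stayed near the untreated arrays or split by dye. The ratios were 0.25, 0.56, 0.20 and 0.31 at 1 h and 0.41, 0.64, 0.38 and 0.57 at 2 h, and all 4 arrays at 2 h exceeded the untreated range. At 4 h they were 0.43, 0.45, 0.06 and -0.14, at 12 h 0.48, 0.37, -0.24 and -0.34, and at 24 h 0.52, 0.52, -0.18 and -0.32. At 3 days they were 0.81, 1.27, -0.10 and 0.07. At all 4 of these times both Cy5 arrays lay above both Cy3 arrays, by more than the spread within either dye, and the group mean fell between them. The Cy5 and Cy3 means were 0.44 and -0.04 at 4 h, 0.42 and -0.29 at 12 h, 0.52 and -0.25 at 24 h, and 1.04 and -0.01 at 3 days. Probe 3863 had a fitted dye effect of 0.19, against -0.11 for Atoh8 and 0.01 for Eng probe 15585.

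**Figure D2:**
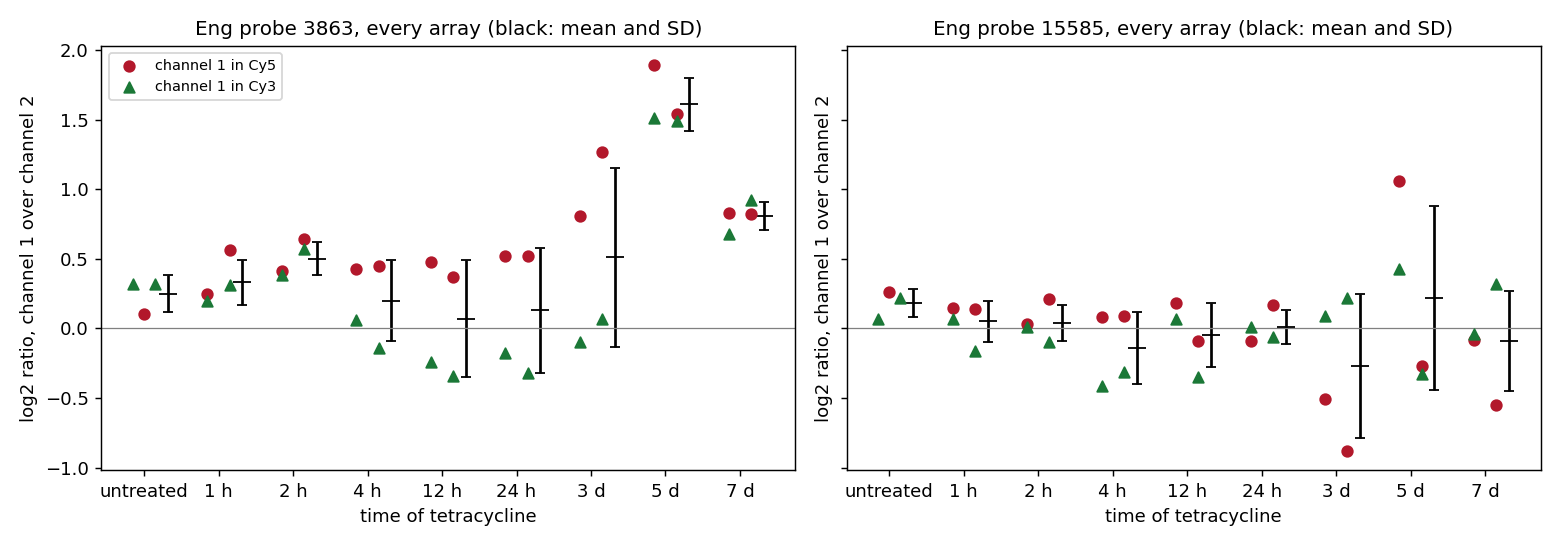
Log2 ratio of Eng probe 3863 (left) and Eng probe 15585 (right) on each of 35 arrays, by time of tetracycline; circles have channel 1 in Cy5, triangles in Cy3, and the black bar is the mean with its SD. Only the left panel has a time, 5 days, at which all 4 arrays reach 1.49 or more; on the right the 5 day arrays run from -0.33 to 1.06.

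On Eng probe 15585 the untreated ratios were 0.26, 0.07 and 0.22, a mean of 0.18 ± 0.10 (SD, n = 3). Its 5 day ratios were 1.06, -0.27, 0.43 and -0.33, a mean of 0.22 ± 0.66 (SD, n = 4), and its 7 day ratios were -0.08, -0.55, -0.04 and 0.32. At 3 days the Cy5 arrays read -0.51 and -0.88 and the Cy3 arrays 0.09 and 0.22, the opposite order to probe 3863 in the same arrays. From 1 to 24 h its means stayed between -0.14 and 0.05. The order of its 9 group means holds no pair of neighbours whose ranges are apart.

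The fitted differences of probe 3863 from untreated, each with an SE of 0.21, were 0.02, 0.19, -0.11, -0.24 and -0.18 from 1 to 24 h, and 0.20, 1.30 and 0.50 at 3, 5 and 7 days. Without untreated replicate 1 these late values were -0.02, 1.07 and 0.27, and without every replicate 1 they were -0.06, 1.04 and 0.33. At 5 days it stood 567th from the highest of 17372 probes, and at 7 days 2666th of 16937. For probe 15585, with an SE of 0.27, the differences ran from -0.45 at 3 days to 0.04 at 5 days. With its probes averaged, Eng differed from untreated by -0.08 at 1 to 4 h, -0.21 at 12 and 24 h and 0.22 at 3 to 7 days. The late mean hides a difference of 0.67 (SE 0.18) on probe 3863 and of -0.23 (SE 0.23) on probe 15585. Before turning, the 5 day ratios of probe 3863 were 1.89 and 1.54 in Cy5 and -1.51 and -1.49 in Cy3. Without turning, such mirrored ratios largely cancel, and its 5 day difference was 0.12 and its 7 day difference 0.03.

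**Figure D3:**
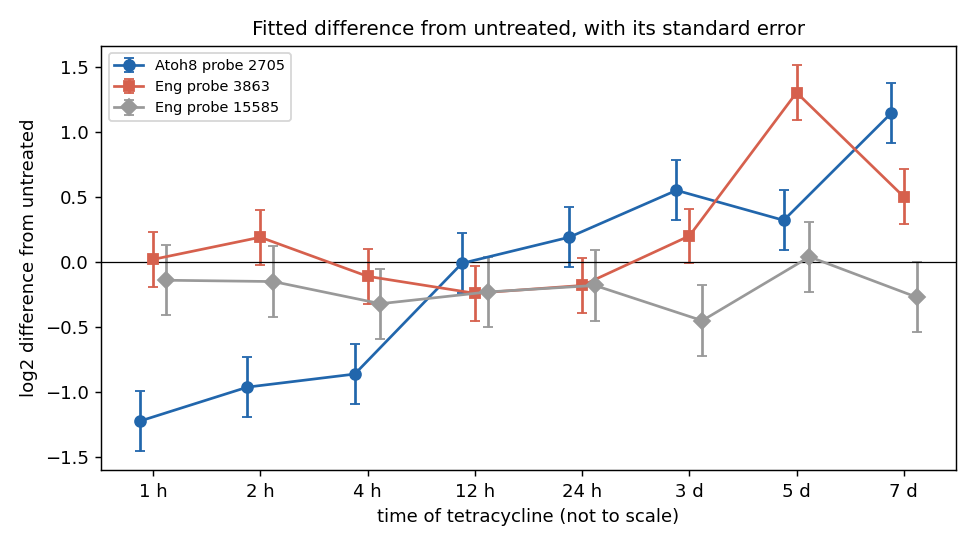
Fitted log2 difference from the untreated arrays at each of 8 times for Atoh8 probe 2705, Eng probe 3863 and Eng probe 15585; bars are the standard error (0.23, 0.21 and 0.27) and the time axis is not to scale. Atoh8 is lowest at 1 h (-1.22) and highest at 7 days (1.14), and Eng probe 3863 is highest at 5 days (1.30).

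Set against the whole array, 1 of the 3 probes had a range apart from the untreated range at 1 h, as had 7.67% of all probes tested then. By the stricter limma call at an adjusted p under 0.05, used for other genes below, 0.197% of all probes passed at 1 h. At 2 h 2 of the 3 were apart, beside 10.6% of all probes (limma called 0.540%), at 4 h 1 beside 6.82% (0.193%), at 12 h 0 beside 6.01% (0.0165%) and at 24 h 1 beside 6.16% (0.0276%). At 3 days 0 of the 3 were apart, beside 4.65% of all probes (limma called 0.732%), at 5 days 2 beside 9.19% (2.19%) and at 7 days 2 beside 7.62% (1.11%). The members were picked from these same values, so nothing is read from these counts.

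The Atoh8 and Eng probes had little in common across arrays. The Pearson r of Atoh8 with Eng probe 3863 was 0.26 over 35 arrays, and with Eng probe 15585 it was 0.09. Within groups, that is after group means were taken off, the values were -0.54 and 0.59. Without the 3 day arrays, where all 3 probes split by dye, they were -0.12 and 0.37 over 31 arrays.

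The probe annotated to Atoh8 followed type I collagen. Col1a2, which encodes the alpha-2 chain of type I collagen, has 4 probes on the array, and the Pearson r of Atoh8 with them was 0.98, 0.98, 0.97 and 0.81. Within groups the first 3 gave 0.83, 0.83 and 0.79, and the other, with values on 34 of the arrays, gave 0.29. Part of this lies in the dye split that Atoh8 and Col1a2 shared at 3 days. Without the 3 day arrays the within-group values were 0.64, 0.62 and 0.49 for the first 3 and -0.02 for the other, while over all groups the first 3 gave 0.99, 0.99 and 0.98. These 3 Col1a2 probes had an r of 0.96 to 0.99 among themselves. Of the 3955 pairs of probes for the same gene, 2 had an r as high as the highest of Atoh8 with Col1a2, and both were pairs of Col1a2 probes. The 99th percentile of same-gene pairs was 0.76. What the spot annotated to Atoh8 holds was not tested, and no probe sequence was used here. Every value given for Atoh8 is that of this probe.

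The levels were also close. Col1a2 was picked by its likeness over these same arrays, so a shared course follows from the choice. Col1a2 probe 18404 averaged -1.44 ± 0.04 at 1 h, -1.30 ± 0.21 at 2 h, -1.18 ± 0.18 at 4 h, -0.22 ± 0.12 at 12 h and -0.05 ± 0.09 at 24 h (SD, n = 4 each). At 3 days it read 0.01, -0.07, 0.70 and 0.91, so its Cy3 arrays were the higher ones, as for Atoh8. At 7 days it averaged 0.96 ± 0.20 (SD, n = 4), beside 0.98 ± 0.20 for Atoh8. There its Cy5 arrays (1.11 and 1.14) were above its Cy3 arrays (0.73 and 0.86), the opposite order to Atoh8. The next named genes were Col1a1 (r = 0.93), which encodes the partner chain of type I collagen, Sparc (0.92), a collagen-binding matrix protein, Itm2b (0.92), a membrane protein, and Pja2 (0.92), a ubiquitin ligase. Sparc differed in level at 12 and 24 h, where its means were 0.44 and 0.47 beside -0.18 and 0.02 for Atoh8.

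**Figure D4:**
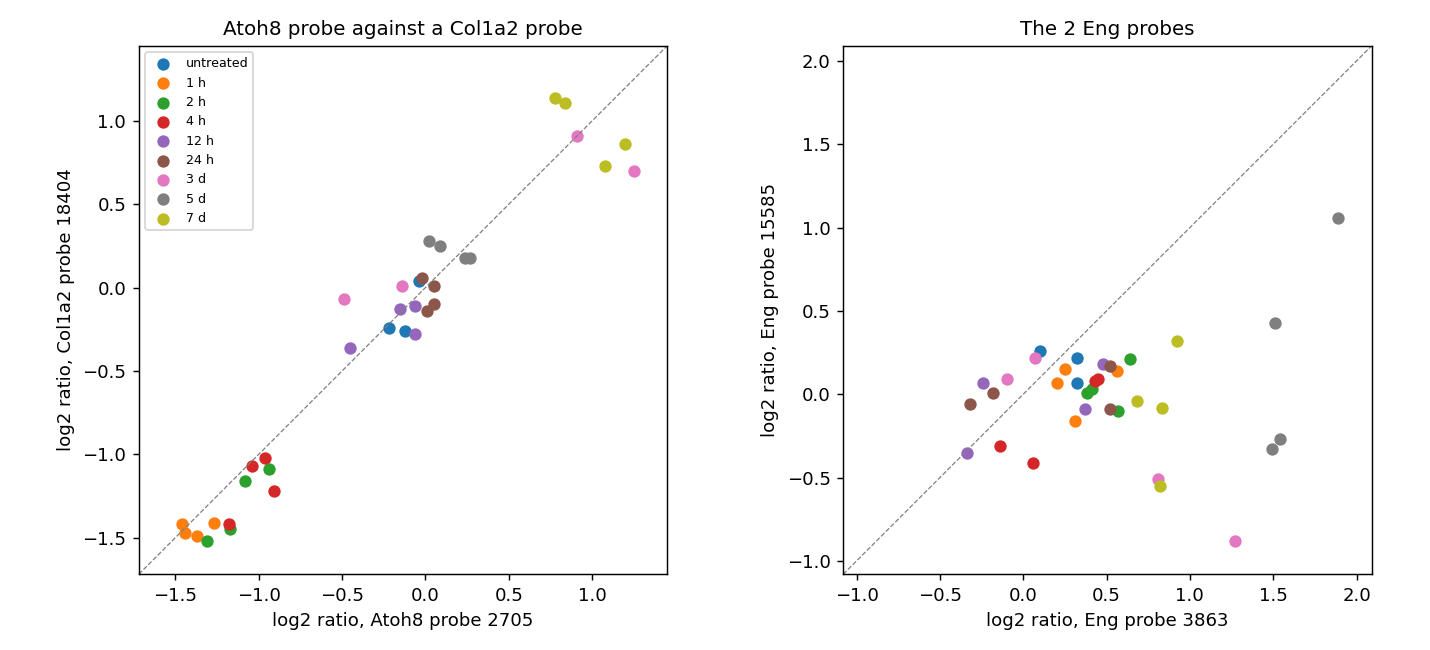
Log2 ratios on the same 35 arrays, coloured by time, of Atoh8 probe 2705 against Col1a2 probe 18404 (left) and of Eng probe 3863 against Eng probe 15585 (right); the dashed line marks equal values. The left points follow the line (r = 0.98 after each probe's dye effect was taken off), and the right points do not (r = 0.12).

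The genes most like Eng probe 3863 were less close. The highest were Dbnl (r = 0.87), an actin-binding adaptor, Cpsf1 (0.87), a subunit of the complex that cleaves and polyadenylates mRNA, Pigr (0.87), the receptor that carries polymeric immunoglobulin across epithelia, Speg (0.86), a striated muscle kinase, and Mylk (0.84), myosin light chain kinase. All 5 had their highest mean at 5 days, from 1.14 for Speg to 1.59 for Mylk. They were picked by likeness over these same arrays, so a shared 5 day peak follows from the choice. Of the 10 probes nearest to Eng probe 3863 in the whole array, 9 had no gene symbol, beside 6320 of all 20355 probes. The closest of these 10 had an r of 0.93. For Eng probe 15585 the nearest were Rnaseh2b (0.73), a ribonuclease subunit, Ttll11 (0.69), Ikbkb (0.67), a kinase upstream of NF-kappa-B, Otud7b (0.66), a deubiquitinase, and Slc3a1 (0.64), an amino acid transporter subunit. The lists of the 2 Eng probes shared 0 genes.

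Among the other listed genes of the BMP and TGF-beta pathways, 2 passed the test. Of 93 listed ligands, receptors, antagonists, Smad proteins, response genes and bHLH relatives, 50 were on the array with 79 probes, and limma called 2 at an adjusted p under 0.05 over all probes. Both were called at 7 days, 1 of 39 genes tested as higher and 1 as lower. A gene counts when any of its probes is called. Per probe, the calls were Fn1 probes 19922, 1795 and 3995 and Fstl1 probe 19166, among 56 listed probes tested at 7 days. Of all probes, 1.11% were called then, 0.614% as higher and 0.496% as lower. At the other 7 times 0 of 40 to 48 genes were called. Probes with an unadjusted p under 0.05 were 12.9% of the listed probes at 1 h against 4.9% of all probes. At 7 days they were 23.2% against 11.2%. The listed share was also the higher one at 2, 4 and 24 h and at 3 days. It was the lower one at 12 h (2.94% against 4.26%) and, slightly, at 5 days. The median listed difference stayed between -0.11 and 0.08 at every time, beside -0.02 to 0.01 for all probes. The count of called genes was 6 without untreated replicate 1, 4 without every replicate 1 or without 3 day replicate 4, and 1 without every replicate 4.

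The called genes were Fn1, which encodes fibronectin and is a TGF-beta response gene, and Fstl1, a secreted follistatin-like protein listed with the antagonists. Fn1 probe 19922 read -1.29, -1.19, -1.39 and -1.51 at 7 days and -0.13, 0.18 and 0.28 in the untreated arrays, with no overlap. Its difference was -1.45 (SE 0.19, limma adjusted p = 7.94e-05), and Fn1 probes 1795 and 3995 differed by -1.03 (SE 0.19, limma adjusted p = 0.00332) and -1.0 (SE 0.17, limma adjusted p = 0.00223). Fn1 probe 1347 differed by -1.06 (SE 0.35) and was not called. Fstl1 probe 19166 read 1.27, 0.92, 0.86 and 1.59 at 7 days against -0.15, 0.14 and 0.14 untreated, a difference of 1.18 (SE 0.22, limma adjusted p = 0.00544). Fn1, also among the fibroblast markers, was thus lower and the Atoh8 probe higher than untreated in the same 7 day arrays. Without turning, the Fn1 differences were 0.43, 0.36 and 0.18 for probes 19922, 1795 and 3995, and that of Fstl1 was 0.08. A fit of only the 7 day and untreated arrays called 0 listed genes, with limma adjusted p from 0.847 to 0.889, although the differences were about as large (-1.45, -1.01 and -1.01 for Fn1 probes 19922, 1795 and 3995, and 1.15 for Fstl1). Without every replicate 4 the calls were lost for Fstl1 (1.07, limma adjusted p = 0.133), Fn1 probe 1795 (-0.95, 0.172) and Fn1 probe 3995 (-0.88, 0.145), and without every replicate 3 for Fn1 probe 1795 (-0.96, 0.0652), while Fn1 probe 19922 stayed called in both.

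By role, 0 of 9 ligands were called at any time, with 7 tested at 3 days and 8 at 5 and 7 days. Bmp4, the ligand with the largest mean difference over the 8 times (0.35), differed by 0.93 at 3 days and 1.01 at 5 days (SE 0.34 each). Its 4 arrays had an SD of 1.20 at 3 days and 0.30 at 5 days, when all lay above the untreated arrays. Neither difference was called (limma adjusted p = 0.22 and 0.146). Among receptors and co-receptors, Bmpr1b, a type I BMP receptor, led with a mean difference of -0.23 and was not called. The receptors that work with endoglin, picked out for that role after their values were seen, were not called at any time tested. Acvrl1 probe 2369 differed by -0.01 (SE 0.62) at 5 days, when Eng probe 3863 was highest. The same probe differed by 0.49 at 3 days and 1.05 at 7 days (SE 0.62 each). The other Acvrl1 probe, 7858, lies near a point where the rows slid, and was among the probes left out at 5 and 7 days. It differed by 0.34, 0.57, 0.19, 0.49 and 0.51 from 1 to 24 h and 0.49 at 3 days (SE 0.24 each). Tgfbr2 probes 1378 and 15296 differed by 0.19 (SE 0.33) and -0.49 (SE 0.24) at 5 days. With the same SEs, they differed by 0.80 and 0.45 at 3 days and by 0.37 and 0.12 at 7 days. Ltbp3, which binds latent TGF-beta in the matrix, differed by 0.76 (SE 0.23) at both 5 and 7 days and was not called (limma adjusted p = 0.0879 and 0.114).

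Smad4, the shared partner of the signalling Smads, led its list with a mean difference of 0.68 on probe 487, where the untreated arrays averaged -0.74 ± 0.62 (SD, n = 3). Its other probe, 7137, differed by -0.04 (SE 0.26) at 1 h and 0.67 (SE 0.26) at 7 days, and neither was called. Of 7 BMP response genes, of which 5 were tested at 5 and 7 days, 0 were called. Hes1, a transcriptional repressor, led with a mean of -0.37, and its 4 arrays at 5 days had an SD of 2.31. Id1, the standard readout of BMP signalling and likewise chosen after its values were seen, differed by 0.52 at 1 h and 0.65 at 2 h (SE 0.29 each) and was not called. Its relatives were not called either, with Id2 at 0.06 (SE 0.24) and the 2 probes of Id3 at -0.19 (SE 0.33) and 0.64 (SE 0.46) at 1 h. Among the 5 bHLH relatives on the array, of which 4 were tested at 12 h and at 5 and 7 days, 0 were called. Tcf4, an E-protein with which bHLH factors pair, led with -0.63 on probe 18648, a probe with an SE of 0.72.

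**Figure D5:**
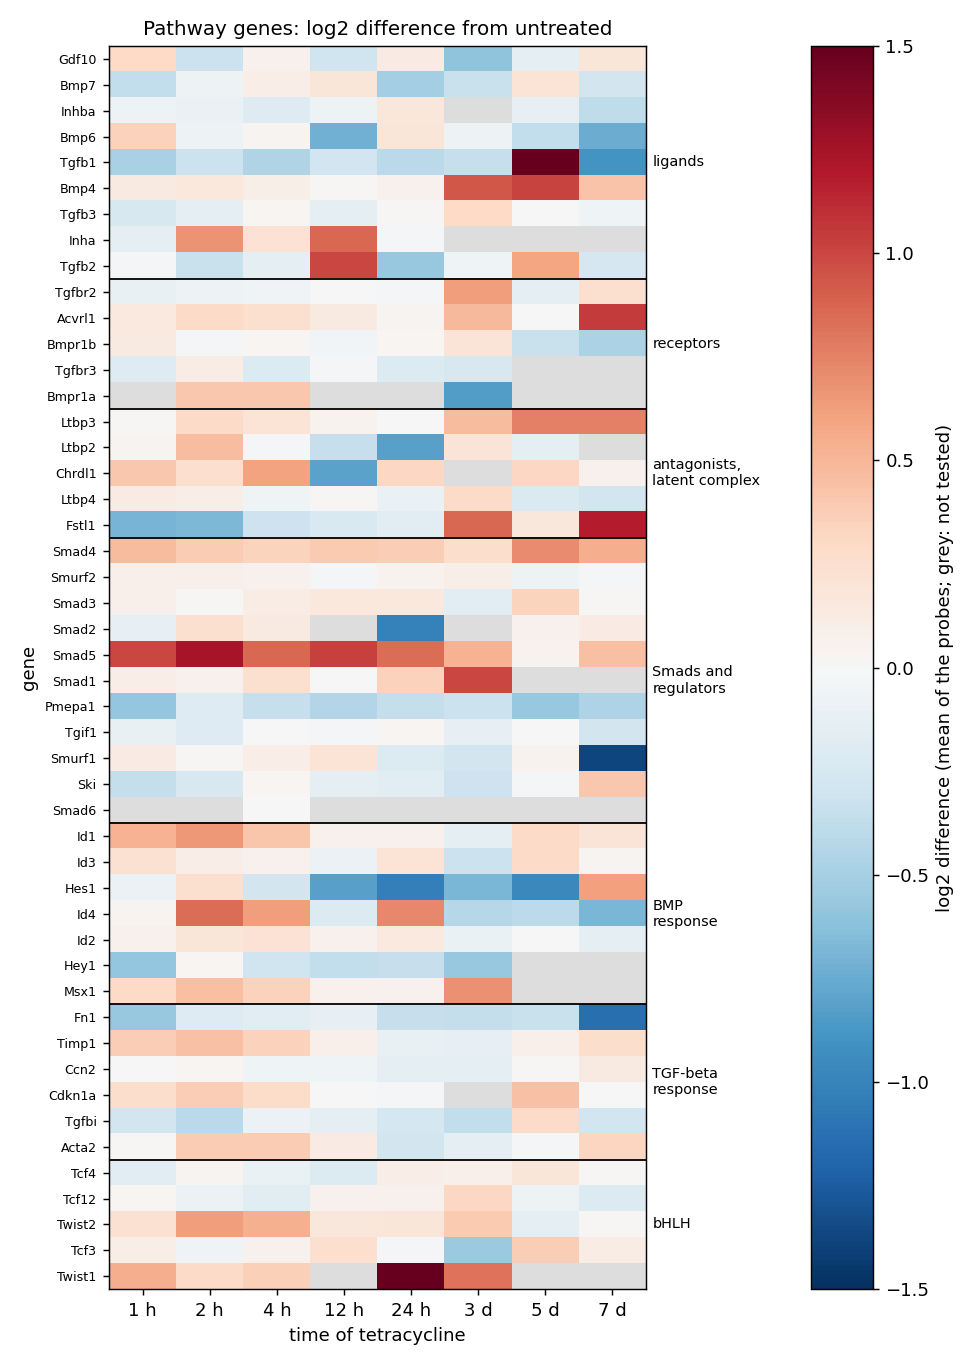
Log2 difference from untreated for the listed pathway genes (rows, by role) at each of 8 times (columns), as the mean of a gene's tested probes; red is higher, blue lower and grey not tested, and values past the ends of the colour bar take its end colour. Fn1 and Fstl1 at 7 days are the called cells. Arrays behind the other cells differ widely for some (Hes1 at 5 days, SD 2.31) and less for others (Bmp4 at 5 days, SD 0.30).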

How the data were processed

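The deposited table holds log2 ratios of 2 channels per probe, per the labels. The software, background correction and normalization behind it, and the numerator of the ratio, are not given in the sources used here. Values above 12 (2807 in all) were dropped, and every array's median was then taken off. At 5 and 7 days the values had slid against the probe rows at rows 6056, 7313, 7852 and 18323 in pooled estimates, and 5 day replicate 1 by 1 row more throughout; they were moved back, leaving out 647 probes per array. Cy3 arrays were multiplied by -1.

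With limma 3.58.1 in R 4.3.3, 35 arrays were fitted together, with 9 group means and 1 dye term for each probe, then eBayes. A probe needed 3 values in each group compared, and Benjamini-Hochberg adjustment ran over all probes tested. The steps were tested on simulated data. Likeness is Pearson's r over at least 30 arrays after the dye effect was taken off.

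Named genes were every probe of Atoh8 and Eng, the pathway genes called, the gene of each role list with the largest absolute mean difference among probes tested at all 8 times, and the 5 most similar named genes per probe; Acvrl1, Tgfbr2 and the Id genes were added for their roles after their values were seen. The members and lists were chosen with earlier results of these data known. Of the probes, 14030 carried 1 gene symbol, 5 several and 6320 none. P-values measure the spread between these arrays, which may be technical. Same-numbered replicates did not deviate together (mean r -0.05 over 136 pairs, against -0.051 for other numbers of the same dye), so the numbers were not taken as pairs. Of the other marker lists, 0 of 3 blood, 0 of 4 epithelial and 0 of 4 nerve and muscle genes were called at any time. Alternatives covered turning, centring, normalization, the dye term, the arrays fitted, the row shift, the replicate block and leaving out arrays; likeness without the 3 day arrays was added after seeing the data.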

Additional observations from a re-analysis of the deposited data

Results flagged for a closer look

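Eng probe 3863 at 5 days stood out for its highest array, 1.89 in replicate 1, whose gap to the nearest of the other 3 (1.54, 1.51 and 1.49) was wide for a group of 4 arrays. A flag of this kind comes up by chance in some groups. Replicate 1 is also the array whose rows were displaced by 1 more than the others along its length. Without this array the 5 day difference from untreated was 1.27, beside 1.30 with it. With the 5 and 7 day values left on their deposited rows, it was 0.87. The part of the displacement in this value was not tested beyond these figures.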

How the results depend on the processing

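Without turning the Cy3 arrays, Atoh8 differed from untreated by 0.16 at 1 to 4 h and -0.21 at 3 to 7 days. Eng differed by 0.14 at 1 to 4 h and 0.23 at 12 and 24 h, and 7 pathway genes were called. In that fit, ratios of opposite sign on the 2 dyes, such as those of Atoh8 at 1 h, were averaged together. There 13 of the 24 single-time values of the 3 probes changed sign, among them Atoh8 at 0.13 (1 h), 0.22 (2 h), 0.13 (4 h), -0.59 (3 days) and -0.06 (7 days) and Eng probe 3863 at 0.26 (4 h), 0.37 (12 h) and 0.40 (24 h), as did Fn1 at 0.36, 0.18 and 0.43 at 7 days. Without centring, Atoh8 was at -1.19 early and -0.08 at 12 and 24 h, Eng at -0.27 early, Eng probe 3863 at 0.24 at 7 days, and 1 pathway gene was called, without Fstl1 (0.92, limma adjusted p = 0.209). Quantile normalization gave -1.74 for Atoh8 early, 0.25 for Eng probe 3863 at 7 days and 4 pathway genes, without Fstl1 (0.91, limma adjusted p = 0.109) or Fn1 probe 3995 (-0.78, 0.0511). Against 0 in place of the untreated arrays, Atoh8 was at -1.18 early and -0.08 at 12 and 24 h, Eng at 0.16 and 0.04, and 13 pathway genes were called. With 5 and 7 day rows not moved back, Fstl1 was at -2.86 and Fn1 probe 19922 at 0.07 at 7 days.

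Pathway genes called were 11 with array weights, 4 with untreated replicates 1 and 2 kept apart, 1 with probes averaged, and 0 with only the arrays compared, where limma called 0 probes of any gene and 18 pathway genes had an unadjusted p under 0.05. Leaving out arrays gave 1 to 6 pathway genes, -1.05 to -0.93 for Atoh8 early and 0.55 to 0.77 late, and 0.11 to 0.3 for Eng late. With the replicate number as a block, Atoh8 was at -0.98 early, 0.12 at 12 and 24 h and 0.70 late, Eng at -0.07, -0.20 and 0.23, and 2 pathway genes were called, so the block changed no call. The cause of these shifts was not tested. Over all alternatives, 43 of 552 single-time values of the 3 probes had the opposite sign, 13 of them without turning, and 37 belonged to differences of at most 0.3. The direction of every value rests on the assumed numerator, and signal over background is not in the file, so dim spots could not be told from bright ones.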
